A study of Mus musculus with 56 samples.

Results

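LINE and SINE retrotransposon types were followed through the reprogramming of mouse embryonic fibroblasts (MEFs) to induced pluripotent stem cells, with and without a change in the amount of CTCF. The members are all repeat rows of class LINE or SINE in a pair of deposited RNA-seq tables whose repeat rows are named by type, family and class. The table of sorted cells holds 189 of them (153 LINE and 36 SINE types) among 14270 rows, and the table of day 10 cells holds 192 (156 LINE and 36 SINE types) among 13868 rows. All 189 and all 192 passed the filter on low values. The rule that chose them uses class alone and no measured value, but it was set with earlier results of these data known.

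The sorted cells came from OG2 MEFs, which carry an Oct4-GFP reporter that marks pluripotent cells. Doxycycline induced a single lentiviral cassette of Oct4, Sox2, Klf4 and c-Myc (OSKM) in cells that also carried rtTA. All groups received an shRNA, either the control shLuci or one against Ctcf (shCTCF). Day 0 cells form 1 population with no surface sort in their label. On days 3, 6 and 9 the cells were sorted into Thy1+ (the fibroblast surface antigen), SSEA1+ (an early surface mark of cells on the way to pluripotency) and SSEA1-Thy1- fractions, and on day 12 GFP+ cells were taken. This gives 11 populations with each shRNA and 2 libraries per group. The day 10 cells came from OG2 MEFs given OSKM by retrovirus together with a control vector, with CTCF overexpression, or with CTCF overexpression and a Smarca5 shRNA, again as 2 libraries per group. The labels do not say that libraries of one group came from separate cultures, so p-values measure the spread between these libraries, which may be technical.

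LINEs are retrotransposons that encode the proteins needed to copy themselves through RNA. In mouse the L1Md_A, L1Md_T and L1Md_Gf types still include copies able to move, while most L1 types are truncated remains of copies inserted long before mouse and rat diverged. SINEs encode no protein and depend on LINE proteins to move; B1 descends from the RNA of the signal recognition particle and B2 from a tRNA, and both are transcribed by RNA polymerase III. Many B2 copies carry a binding motif of CTCF, the zinc finger protein that shapes chromatin loops. L1 RNA is abundant in early embryos and low in most somatic cells, where DNA methylation and repressive histone marks silence it. Reads of a repeat that lies within a host gene's transcript and reads of a repeat transcribed from its own promoter cannot be told apart in these tables.

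Values are the authors' normalized scores, whole numbers whose total was between 31777102 and 31798964 in each sorted-cell library and between 19465402 and 19479768 in each day 10 library. The median row had a score of 500 and 599 in the respective table. Because totals were near equal by construction, the sequencing depth behind a score is unknown. The scores also had the same quartiles in every library of a table, and exact values recurred in unrelated rows. At day 10, for example, 25732 and 27469 both occurred for B3, ID_B1 and the gene Pou5f1. A score may therefore follow the rank of a row within its library. Fold changes given here are ratios of such scores and not measured ratios of RNA amounts. Tests compare scores only for the same type between libraries. The length of each type is not in the files, so a higher score of one type than of another, or a sum over types, is not a level per length. Differences are log2 ratios of score + 1, and a type was called when limma's adjusted p over all rows of the table was below 0.05. LINE and SINE types together made up between 4.13% and 4.75% of the summed score at day 0 and between 6.54% and 7.19% at day 12, over both shRNAs. In bulk samples, fewer cells that transcribe a repeat and less RNA per cell cannot be told apart.

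The labels were checked on genes. Ctcf was lower with Ctcf shRNA in 11 of 11 populations without overlap of the libraries, for example 520 and 616 against 790 and 830 at day 0 and 698 and 674 against 2381 and 2441 at day 12. At day 10 Ctcf scored 5110 and 6132 with overexpression, 7225 and 5205 with the added Smarca5 shRNA, and 1262 and 1234 in the control. Smarca5, an ISWI chromatin remodeler, scored 6387 and 6650 with its shRNA against 12278 and 11554 in the control. Of 15 pluripotency marker genes, 15 were higher at day 12 than at day 0 with control shRNA, and of 14 fibroblast markers, 14 were lower. At day 12 the fibroblast marker scores summed to between 19509 and 20557 with control shRNA and to between 58891 and 59527 with Ctcf shRNA. Sums of 7 macrophage markers at day 0 were 6815 to 8194 with control and 9928 to 12298 with Ctcf shRNA. At day 12 they were 2101 to 2191 and 1700 to 1841. With control shRNA, sums of 9 epithelial markers went from 1365 to 1410 at day 0 to 17974 to 18182 at day 12. Those of 3 muscle markers went from 3770 to 4254 to 135 to 154. The part of such other cells in the repeat values was not tested.

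All 6 young L1 types rose between day 0 and the day 12 GFP+ cells, L1Md_Gf and L1Md_T by far the most. L1Md_T, one of the active mouse L1 subfamilies, scored 5720 and 4772 at day 0 and 62308 and 59685 at day 12, with no overlap. The rise was 11.7-fold (log2 3.54, SE 0.16, limma adjusted p = 5.39e-17). L1Md_Gf, a rarer active subfamily, went from 104 and 80 to 1937 and 1934, a 21-fold rise (log2 4.39, SE 0.26, limma adjusted p = 1.42e-14). L1Md_A, the third active subfamily, went from 2806 and 2501 to 13160 and 12304 (log2 2.26, limma adjusted p = 5.02e-12). The F types, older relatives of the T subfamily, changed less. L1Md_F rose by a log2 ratio of 1.56, L1Md_F3 by 1.36 and L1Md_F2 by 1.20, and their libraries at day 12 were all above those at day 0. The summed share of young L1 types in a control library's score went from between 0.056% and 0.070% to between 0.320% and 0.339%.

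**Figure D1:**
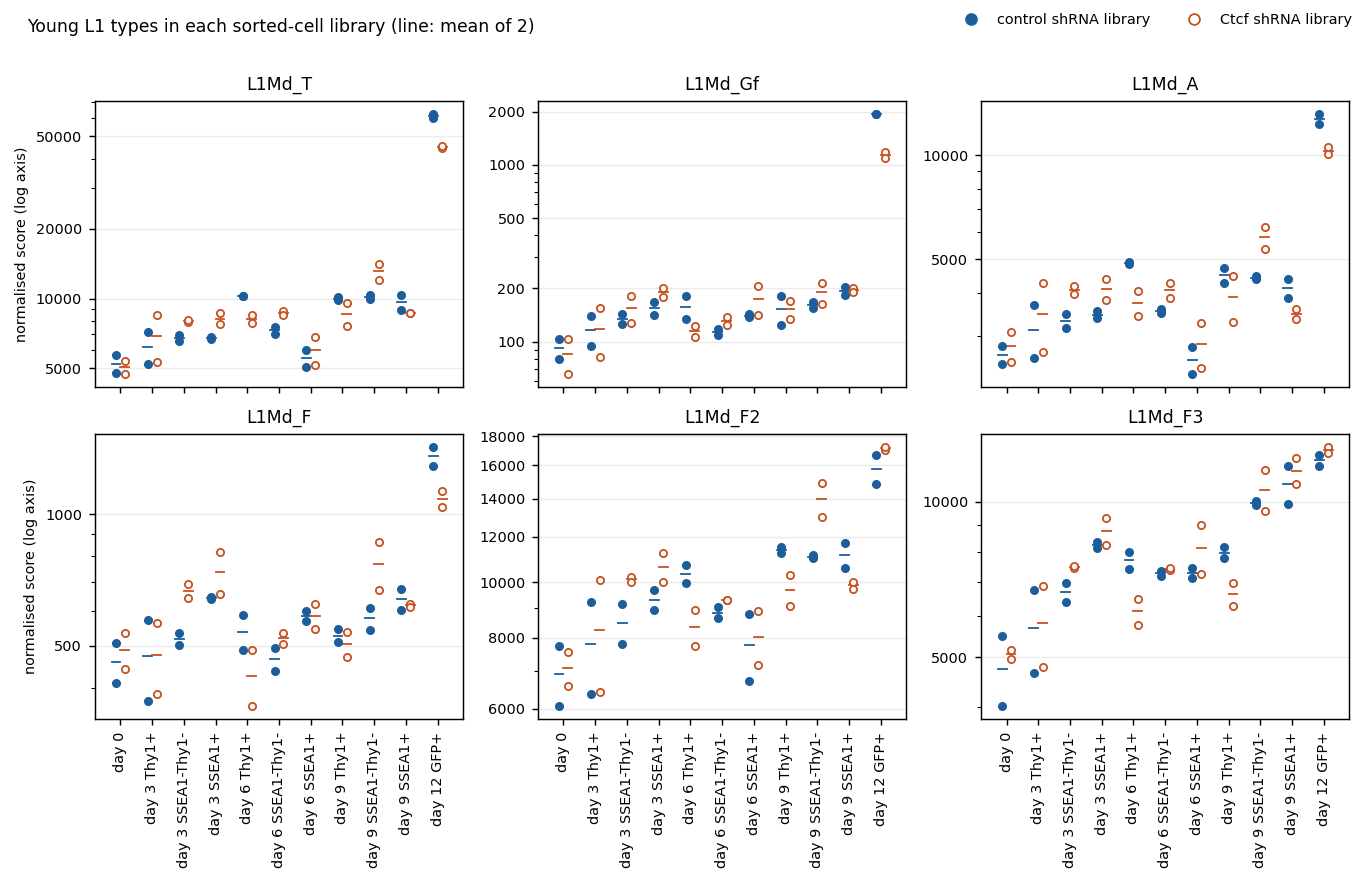
Normalised score (log axis) of each of the 6 young L1 types in every sorted-cell library, by population from day 0 to day 12; filled points are control shRNA libraries, open points Ctcf shRNA libraries, and lines the mean of 2. L1Md_T lies between 4772 and 10403 in all control shRNA libraries up to day 9 and at 59685 or above on day 12, while L1Md_F3 is already at 9927 and 11734 in day 9 SSEA1+ cells.

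Across all 189 types, 103 were higher and 23 lower at day 12 (66.7% called, beside 79.1% of all rows), with a median log2 ratio of 0.41 beside 0.03 over all rows. All rows were called higher in 40.3% and lower in 38.8% of cases. The 630 LTR and DNA transposon types of the same table had a median of 0.37, with 270 higher and 113 lower, so a raised median was not seen for LINE and SINE types alone. Other L1 types named for the mouse or rodent lineage (13 types) and Lx types, which spread in ancestors of mouse and rat (21 types), were higher in 13 and 18 cases and lower in 0, with medians of 0.79 and 0.85. The 91 old L1 types, shared with other mammals, split into 28 higher, 18 lower and the rest not called, with a median of 0.18. The 22 LINE types of the L2, CR1, RTE and other families had 5 higher and 5 lower and a median of -0.38.

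SINEs moved in one direction at this end of the course. Of 36 types, 33 were higher at day 12 and 0 lower, with a median log2 ratio of 0.69. All 5 B2 types rose, by log2 ratios between 1.14 (B3A) and 1.39 (B3). B2_Mm2, another type of the family, went from 38854 and 30600 to 87096 and 87898 (log2 1.34, SE 0.15, limma adjusted p = 1.01e-08). B2_Mm1a, a young B2 type, went from 8828 and 7246 to 20438 and 20334 (log2 1.35, limma adjusted p = 8.33e-11). All 15 B1 types rose as well, with a median of 0.75. Among them B1_Mus2 rose most, from 6982 and 7028 to 18832 and 17423 (log2 1.37, limma adjusted p = 1.04e-11), then B1_Mus1 (log2 1.23) and PB1D9 (log2 1.05). The B1 type that rose least was PB1D7, an old monomer related to B1, with a log2 ratio of 0.43 (limma adjusted p = 0.000918). All 4 B4 and all 4 ID types were higher too, while of 4 MIR types, SINEs older than the rodents, 2 were.

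**Figure D2:**
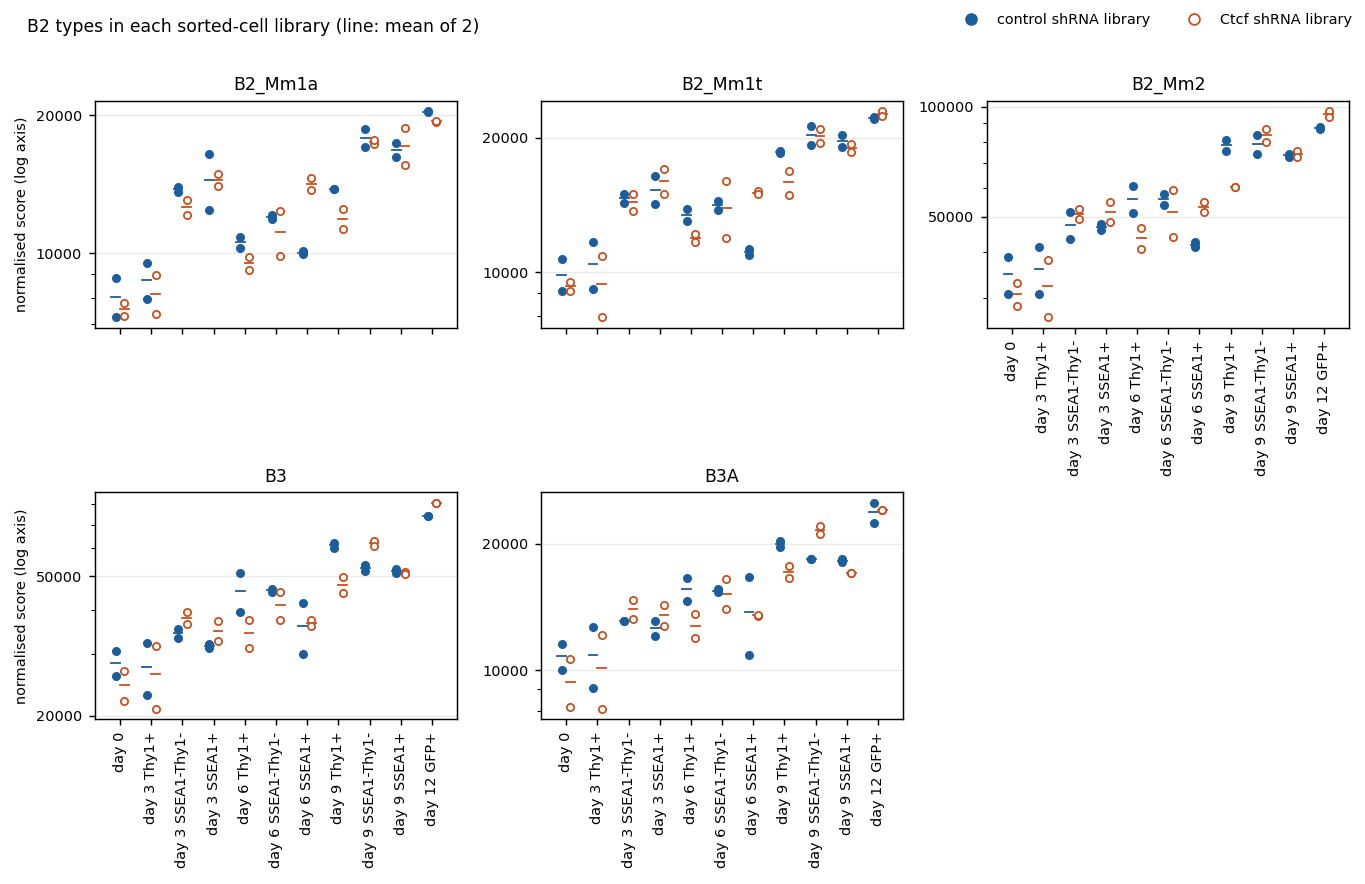
Normalised score (log axis) of the 5 B2 types in every sorted-cell library, by population; filled points are control shRNA libraries, open points Ctcf shRNA libraries, and lines the mean of 2. B2_Mm2 goes from 30600 and 38854 at day 0 to 72992 and 74122 in day 9 SSEA1+ cells and 87096 and 87898 at day 12.

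Single old types made larger moves than any group median. L1MEi, an old L1 type, scored 578 and 984 at day 0 and 40346 and 42904 at day 12, a 55.1-fold rise (log2 5.78, limma adjusted p = 6.8e-21). HAL1ME, a relic related to L1 that codes for only part of its proteins, went from 2726 and 2768 to 10820 and 12092 (log2 2.06, limma adjusted p = 1.27e-15). Both were higher still in day 6 SSEA1+ cells, at 52278 and 59058 for L1MEi and at 17566 and 19886 for HAL1ME. L1_Mus3, of the mouse lineage, went from 9678 and 7598 to 19886 and 18776 (log2 1.17). The largest falls among types at or above the median level were in X7A_LINE, an ancient LINE fragment, from 6112 and 5788 to 1368 and 1946 (log2 -1.87, limma adjusted p = 4.92e-09), in L1MC2, from 12882 and 15007 to 5436 and 6118 (log2 -1.27), and in L1ME3A, from 12800 and 10570 to 6036 and 5275 (log2 -1.04). L1MC2 and L1ME3A were at their lowest in the day 12 control libraries.

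**Figure D3:**
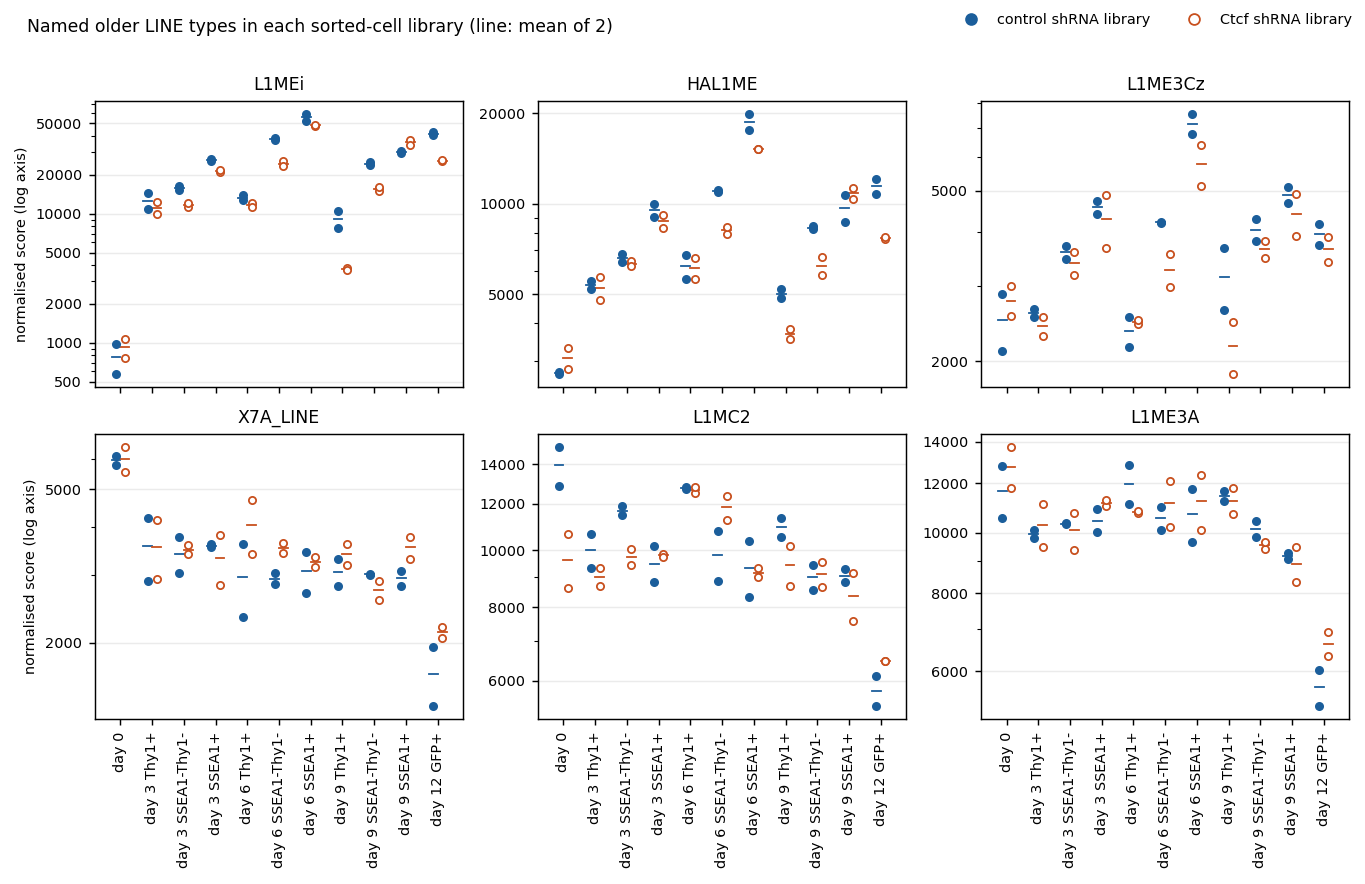
Normalised score (log axis) of 6 older LINE types in every sorted-cell library, by population; filled points are control shRNA libraries, open points Ctcf shRNA libraries, and lines the mean of 2. L1MEi and HAL1ME peak in day 6 SSEA1+ cells (52278 and 59058, 17566 and 19886), and X7A_LINE, L1MC2 and L1ME3A are lowest at day 12.

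The intermediate fractions were then set against day 0. In SSEA1+ cells of day 3, 102 types were higher and 7 lower than at day 0 (57.7% called, beside 71.4% of all rows, 40.2% higher and 31.2% lower), with a median log2 ratio of 0.44 beside 0.12 over all rows. Old L1 types made up most of these: 63 of 91 were higher and 3 lower, with a median of 0.61. Of the young L1 types 5 of 6 were higher, with L1Md_F3 at 0.81, L1Md_Gf at 0.75 and L1Md_F at 0.49, while L1Md_T had a log2 ratio of 0.37 (limma adjusted p = 0.0445) and L1Md_A, not called, one of 0.39. B2_Mm1a rose by 0.84 and B2_Mm1t by 0.63, and B2_Mm2 by 0.44, whereas B3 and B3A had values of 0.17 and 0.22 that were not called. Of 15 B1 types 3 were called, all higher, of which B1_Mus2 (log2 0.49) moved most. With scores scaled on genes alone, which moved the median of all rows to 0.04, 2 young L1 types were higher, and 1 B1 type was higher and 1 lower. Without replicate 2 of day 0 the calls of L1Md_T, L1Md_Gf, L1Md_F and B2_Mm2 were lost (log2 0.23, 0.57, 0.34 and 0.27), as they were without replicate 1 of these SSEA1+ cells (log2 0.38, 0.63, 0.48 and 0.42), and those of L1Md_T and L1Md_F were lost without its replicate 2 (log2 0.35 and 0.49).

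In SSEA1+ cells of day 6, 82 types were higher and 6 lower than at day 0 (46.6%, beside 75.6% of all rows, 42.2% higher and 33.4% lower), with a median of 0.33 beside 0.14 over all rows; without replicate 1 of these SSEA1+ cells 58 types in all were called, and without replicate 2 115, so that whether day 6 had fewer calls than day 3 depended on 1 library. L1Md_T, at 6020 and 5046, overlapped the day 0 libraries, and L1Md_A, at 2790 and 2340, did as well (log2 ratios of 0.08 and -0.05, not called). L1Md_F3 (log2 0.63) and L1Md_Gf (log2 0.62) were the 2 young L1 types called. Of the B2 types B2_Mm1a was called, at 0.33. With scaling on genes alone L1Md_Gf and B2_Mm1a were not called (log2 0.52 and 0.23), nor were they without replicate 2 of day 0 (0.43 and 0.18) or of these SSEA1+ cells (0.59 and 0.31); L1Md_Gf was not called without replicate 1 of the SSEA1+ cells either (0.64). Of the old L1 types 53 of 91 were higher, with a median of 0.55. Replicate 1 of this group was above replicate 2 in 154 of 189 types, by a median of 0.27 on the log2 scale.

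On day 9 most SINE types in SSEA1+ cells were above day 0, while the active L1 types were still far below their day 12 scores. Relative to day 0, 118 types were higher and 13 lower (69.3%, beside 71.9% of all rows, 37.3% higher and 34.6% lower), with a median of 0.50 beside 0.04 over all rows. All 5 B2 types were higher, with a median of 1.00, as were 14 of 15 B1 types, with a median of 0.53. L1Md_T, at 10403 and 8914, had a log2 ratio of 0.88 (limma adjusted p = 2.28e-05), L1Md_Gf, at 184 and 204, one of 1.08, and L1Md_A one of 0.64. L1Md_F3, by contrast, had reached 11734 and 9927 (log2 1.20, limma adjusted p = 1.01e-07).

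Day 12 GFP+ cells were then set against day 9 SSEA1+ cells, a comparison added after the scores had been seen. L1Md_T was 6.33-fold higher at day 12 (log2 2.66, limma adjusted p = 4.33e-13), L1Md_Gf had a log2 ratio of 3.31, L1Md_A of 1.63 and L1Md_F of 1.09. L1Md_F2 had one of 0.50 (limma adjusted p = 0.0134), a call lost without replicate 1 of the day 12 cells (0.42) or replicate 2 of the day 9 cells (0.43), and L1Md_F3 one of 0.16 that was not called (limma adjusted p = 0.395). Old L1 types went the other way, with 48 of 91 lower, 1 higher (L1MEi, log2 0.47, named after its value was seen) and a median of -0.40. Of the B2 types only B3 (log2 0.52) was called, and of the B1 types 4 of 15. In all, 26 types were higher and 54 lower (42.3%, beside 57.6% of all rows, 25.1% higher and 32.5% lower), or 33 and 43 with scores scaled on genes alone. Without replicate 2 of the day 9 SSEA1+ cells 50 types in all and 30 lower old L1 types were called, and without replicate 2 of the day 12 cells 31 old L1 types were lower.

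**Figure D4:**
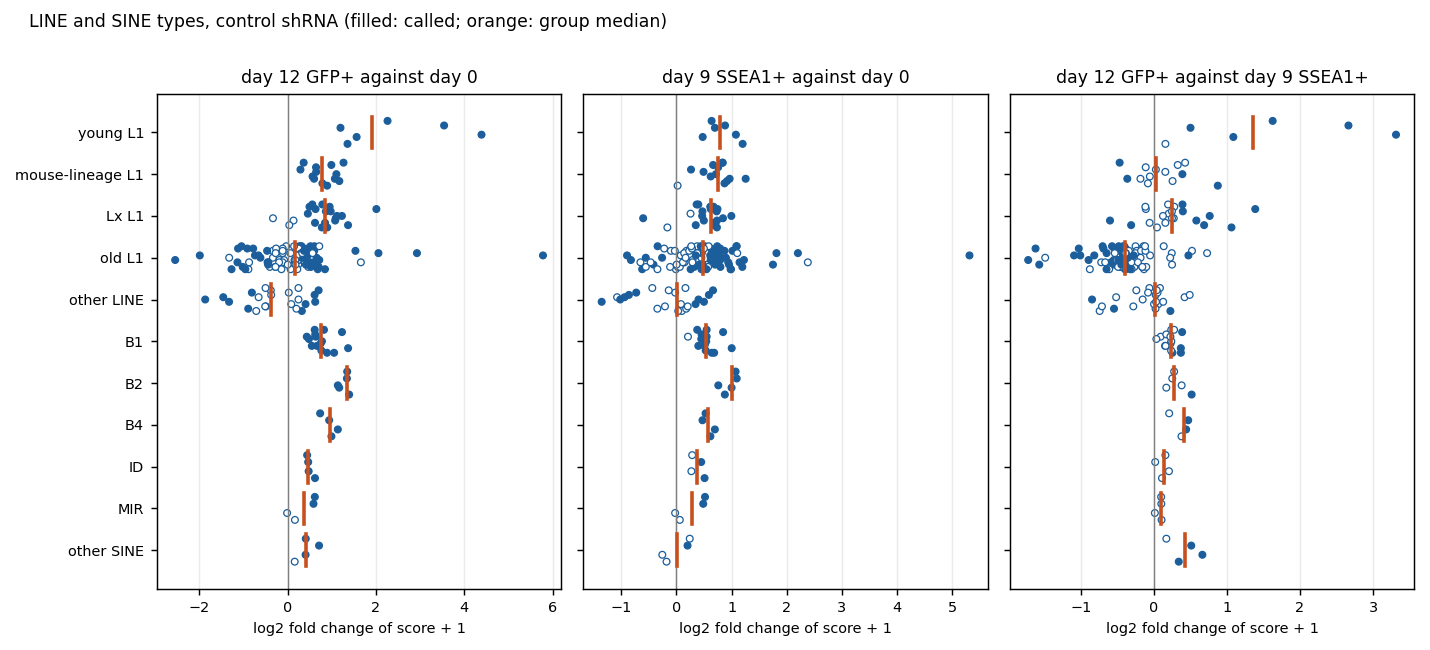
Log2 fold change of score + 1 for each of the 189 LINE and SINE types, by group, in 3 comparisons of control shRNA cells; filled points are called by limma, open points are not, and orange bars are group medians. The young L1 median is 1.91 for day 12 against day 0 and 0.79 for day 9 SSEA1+ against day 0, and old L1 types lie mostly below 0 for day 12 against day 9 SSEA1+ (median -0.40).

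The highest population of each type, by mean score over control shRNA libraries, differed between the groups. All 6 young L1 and all 5 B2 types were highest at day 12. Of 15 B1 types, 11 were highest at day 12 and 4 in day 9 Thy1+ cells. So were 11 of 21 Lx, 5 of 13 mouse-lineage L1, 3 of 4 B4, 2 of 4 ID and all 4 other SINE types highest at day 12. Of 91 old L1 types, 2 were highest at day 12, 24 in day 6 SSEA1+ cells and 23 in day 3 SSEA1+ cells. Another 17 were highest in day 9 Thy1+ cells and 11 in day 9 SSEA1+ cells. The 4 MIR types were all highest in day 9 Thy1+ cells. The distance between the lowest and the highest population had a median of 1.94 on the log2 scale for young L1, 1.34 for B2, 0.94 for old L1 and 0.75 for B1 types.

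Thy1+ cells, which keep the fibroblast antigen, were also above day 0 in many LINE and SINE types on day 9. Set against day 0, in the other comparison added after the scores had been seen, day 9 Thy1+ cells had 123 types higher and 6 lower (68.3%, beside 64% of all rows, 31% higher and 32.9% lower), with a median log2 ratio of 0.57 beside -0.03 over all rows. All 5 B2 types (median 0.92), all 15 B1 types (median 0.58), 20 of 21 Lx types (median 0.74) and 5 of 6 young L1 types (median 0.75) were higher. L1Md_T scored 9855 and 10120 in these cells, inside the range of the SSEA1+ cells of that day. The B2 median in Thy1+ cells relative to day 0 was 0.04 on day 3 and 0.53 on day 6.

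SSEA1+ cells were also set against Thy1+ cells of the same day; whether this contrast differs between days was not tested. On day 3, 95 types were higher and 2 lower in SSEA1+ cells (51.3%, beside 63.5% of all rows, 36.1% higher and 27.4% lower), with a median of 0.37 beside 0.12 over all rows. Of old L1 types 57 of 91 were higher. B2_Mm1a scored 16472 and 12418 in SSEA1+ and 9522 and 7952 in Thy1+ cells (log2 0.72, limma adjusted p = 1.08e-05), and B2_Mm1t had a log2 ratio of 0.56. These counts rest in part on single libraries, since without replicate 2 of the Thy1+ cells 52 types in all and 34 higher old L1 types were called, and without replicate 1 of the SSEA1+ cells 36 old L1 types were higher. In those Thy1+ cells replicate 1 was above replicate 2 in 145 of 189 types.

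On day 6 L1Md_T, L1Md_A and several SINEs were lower in SSEA1+ than in Thy1+ cells. L1Md_T scored 10289 and 10242 in Thy1+ cells against 6020 and 5046 in SSEA1+ cells (log2 -0.90, SE 0.16, limma adjusted p = 1.65e-05). L1Md_A scored 4904 and 4854 against 2790 and 2340 (log2 -0.93, limma adjusted p = 3.24e-05). For both types the fractions did not overlap. L1Md_Gf, at 135 and 181 against 138 and 143, overlapped and was not called (log2 -0.15, limma adjusted p = 0.604). L1Md_F2 (log2 -0.43), B2_Mm2 (log2 -0.41), B1F (log2 -0.31), B1_Mur4 (log2 -0.26), PB1D7 (log2 -0.40) and 3 of 4 MIR types were lower too, among them MIR3, at 4259 and 3562 against 6208 and 5970 (log2 -0.64, limma adjusted p = 1.68e-07). Without replicate 2 of the SSEA1+ cells the calls of L1Md_F2, B2_Mm2, B1F, B1_Mur4 and PB1D7 were lost, with log2 ratios of -0.23, -0.39, -0.09, -0.08 and -0.19. Without replicate 1 of the Thy1+ cells those of L1Md_F2, B2_Mm2, B1F and B1_Mur4 were lost, with ratios of -0.37, -0.29, -0.20 and -0.18.

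Certain old types were much higher in the same SSEA1+ cells. L1MEi scored 52278 and 59058 against 12653 and 14008 (log2 2.06, limma adjusted p = 3.53e-11), L1ME3Cz 6774 and 7554 against 2160 and 2538 (log2 1.61, limma adjusted p = 1.98e-09), and HAL1ME had a log2 ratio of 1.60 (limma adjusted p = 3.99e-13). Lx7, a rodent L1 type, was lower, at 93576 and 68432 against 128388 and 134670 (log2 -0.72, limma adjusted p = 3.72e-06). ID_B1, a composite SINE of the B4 family, was lower as well (log2 -0.48, limma adjusted p = 0.00636), a call lost without replicate 1 of the Thy1+ cells (log2 -0.35) or replicate 2 of the SSEA1+ cells (log2 -0.20).

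In all, 38 types were higher and 21 lower on day 6 (31.2%, beside 74% of all rows, 41.8% higher and 32.2% lower), with a median of 0.04 beside 0.16 over all rows. The split depended on the scaling. With scores scaled on genes alone, which moved the median of all rows to 0.02, the types split into 22 higher and 45 lower, with 17 of 91 old L1 types higher and 9 lower, 9 B1 and 3 B2 types lower, and 3 young L1 types lower under either scaling. The fibroblast marker scores summed to between 244516 and 255842 in these Thy1+ cells and to between 7907 and 8296 in the SSEA1+ cells, and the part of this difference in the repeat values was not tested.

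On day 9, 12 types were higher and 17 lower in SSEA1+ cells (15.3%, beside 65.9% of all rows, 37% higher and 29% lower), or 8 and 32 with scaling on genes alone, where old L1 types went from 7 higher and 5 lower to 6 and 11. L1Md_F3 (log2 0.44) and B2_Mm1a (log2 0.28) were higher, both lost with that scaling (log2 0.35 and 0.19), and PB1D7 (log2 -0.32) and 3 of 4 MIR types were lower. B2_Mm1a was not called without any one of the 4 libraries (log2 0.23 to 0.33), L1Md_F3 not without replicate 2 of the Thy1+ or replicate 1 of the SSEA1+ cells (0.40 and 0.32), and PB1D7 not without replicate 2 of either fraction (-0.31 in both). Without replicate 1 of the SSEA1+ cells 18 types were called, and without replicate 2 of the Thy1+ cells 19.

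The question of the shRNA arm is what less CTCF does to these repeats. Over the mean of the 11 populations, Ctcf had a log2 ratio of -1.11, yet no young L1, B1 or B2 type was called. In all 5 types were higher and 16 lower (11.1%, beside 49.5% of all rows, 24.9% higher and 24.6% lower), and the median log2 ratio was -0.02 beside -0.01 over all rows. L1MEi (log2 -0.37, SE 0.052, limma adjusted p = 1.7e-06), HAL1ME (log2 -0.19) and L1MA5A (log2 -0.22), all old L1 types chosen for mention after their values were seen, were lower, and L1M2b (log2 0.27, limma adjusted p = 0.00026) was higher. L1MDa, the type the naming rule gives, had a log2 ratio of -0.11 (limma adjusted p = 0.022). When repeat types were fitted apart from genes, 6 types passed the threshold and L1MDa did not (limma adjusted p = 0.106).

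Within populations the counts of called types were low. These tests did not pair libraries by replicate, so an offset shared by both shRNAs, as in day 3 Thy1+ cells, counted as spread. The shares of types called were 2.65% at day 0 (5 types, beside 6.19% of all rows), 0 of 189 in day 3 Thy1+ cells (beside 3.66%) and in day 3 SSEA1-Thy1- cells (beside 4.55%), and 0.529% in day 3 SSEA1+ cells (1 type, beside 6.27%). At an unadjusted p under 0.05, limma gave 3 and 8 types in the 2 populations with none called. On average a share of 0.05 passes this threshold where nothing differs, so no effect is read from these counts. On day 6 there were 5 types in Thy1+ (beside 13.4%), 5 in SSEA1+ (beside 20.5%) and 6 in SSEA1-Thy1- cells (beside 39.5%). On day 9 there were 10 types in Thy1+ (beside 18.4%), 3 in SSEA1+ (beside 12.9%) and 3 in SSEA1-Thy1- cells (beside 26.1%). These counts moved with single libraries. When replicate 1 with Ctcf shRNA was left out they became 17 at day 0, 0 in day 3 SSEA1+, 0 in day 6 Thy1+, 3 in day 6 SSEA1+, 4 in day 9 Thy1+ and 1 in day 9 SSEA1+ cells. When replicate 2 was, they became 2 at day 0, 3 in day 6 Thy1+, 1 in day 6 SSEA1+ and 6 in day 9 SSEA1-Thy1- cells. Leaving out replicate 1 with control shRNA gave 2 at day 0, 0 in day 3 SSEA1+, 1 in day 6 Thy1+, 2 in day 9 Thy1+ and 0 in day 9 SSEA1+ cells, and leaving out replicate 2 gave 1 in day 6 Thy1+ and 3 in day 9 Thy1+ cells.

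**Figure D5:**
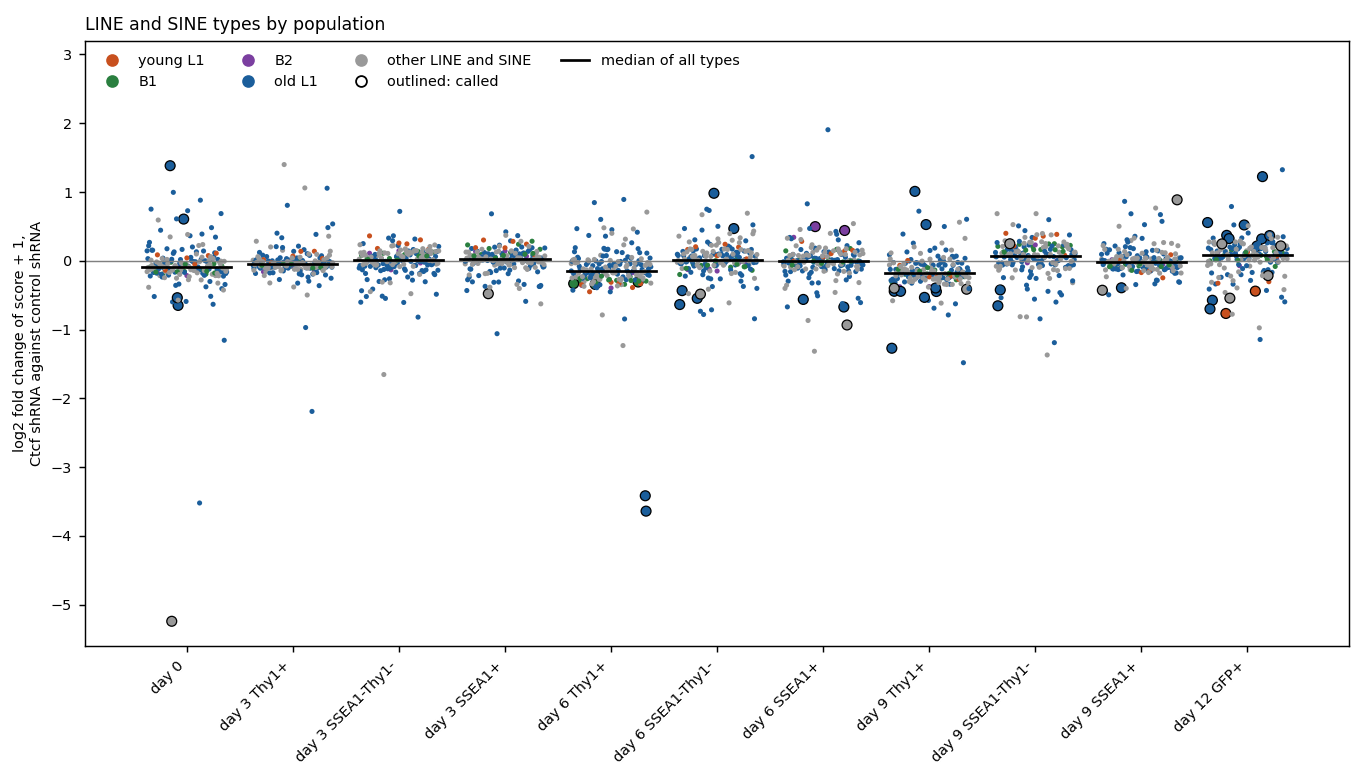
Log2 fold change of score + 1, Ctcf shRNA against control shRNA, for each of the 189 types in each of the 11 populations; colours mark the groups, outlined points are called by limma and black lines are the medians of all types. Most types lie close to 0 in every population, and the outlined young L1 points (2) are both at day 12.

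Certain old L1 types were called in several populations. HAL1ME, L1MEi and L1M2b were each called in 4 populations, and L1MA5A in 3. L1MEi in day 9 Thy1+ cells scored 3776 and 3683 with Ctcf shRNA against 10477 and 7736 (log2 -1.27, limma adjusted p = 5.3e-06), and in day 9 SSEA1+ cells 37188 and 34227 against 29280 and 30734, which was not called (log2 0.25). HAL1ME was called lower in day 6 and day 9 SSEA1-Thy1- cells (log2 -0.43 and -0.42), in day 9 Thy1+ cells (log2 -0.44) and at day 12. L1M2b was called higher at day 0, in day 6 SSEA1-Thy1- cells (426 and 479 against 240 and 217, log2 0.98), in day 9 Thy1+ cells and at day 12.

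Of the SINEs, B2_Mm1a was higher with Ctcf shRNA in day 6 SSEA1+ cells, at 14578 and 13751 against 9944 and 10120 (log2 0.50, limma adjusted p = 0.00395). B2_Mm1t, at 15202 and 14938 against 10958 and 11247 (log2 0.44, limma adjusted p = 0.015), was higher too, but its call was lost when repeats were fitted apart from genes (limma adjusted p = 0.113) and without any one of these libraries. In day 6 Thy1+ cells B1_Mm, B1_Mur4 and B1_Mus2 were lower, by log2 ratios of -0.31, -0.34 and -0.33. These 3 calls were lost as well when repeats were fitted apart and without any one of the 4 libraries. The other 2 calls in those Thy1+ cells, the old L1 types L1M3b and L1MEg1, rest on scores of 1 in replicate 1 with Ctcf shRNA, beside 31 and 226 in replicate 2.

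At day 12, where 46.5% of all rows were called, 23.3% higher and 23.1% lower, 10 LINE and SINE types were higher and 6 lower with Ctcf shRNA (8.47%), or 14 and 5 with scores scaled on genes alone. L1Md_T scored 44682 and 45174 against 62308 and 59685 (log2 -0.44, SE 0.16, limma adjusted p = 0.0265), and L1Md_Gf 1188 and 1090 against 1937 and 1934 (log2 -0.77, limma adjusted p = 0.0169), without overlap in either. L1Md_A and L1Md_F had log2 ratios of -0.30 and -0.33 and L1Md_F2 and L1Md_F3 of 0.12 and 0.07, none called. Both young L1 calls were lost when repeats were fitted apart from genes (limma adjusted p of 0.147 for L1Md_T and 0.112 for L1Md_Gf), and 1 or 0 of them held without any one of the 4 libraries. L1MEi fell to 25401 and 25824 from 40346 and 42904 (log2 -0.70, limma adjusted p = 0.00177), and HAL1ME to 7634 and 7736 from 10820 and 12092 (log2 -0.57, limma adjusted p = 0.000104). The number of all types called was 8 without replicate 1 and 6 without replicate 2 of the Ctcf shRNA cells, and 8 and 10 without replicates 1 and 2 of the control shRNA cells. Beside these values, 13 of 14 fibroblast markers were higher with Ctcf shRNA at day 12 (median log2 1.44), and only 3 of 15 pluripotency markers were lower. The scores of all 15 summed to between 45052 and 45082 against between 71279 and 71792, and such a sum is weighted to high-scoring genes. The part of these markers in the repeat values was not tested.

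The change with Ctcf shRNA at day 12 was also set against that at day 0 by an interaction term. Of 189 types 14 differed, 8 with a higher and 6 with a lower ratio at day 12 (7.41%, beside 37% of all rows, 20% higher and 16.9% lower). None of the young L1 types was among them, with differences in log2 ratio of -0.39 for L1Md_T (limma adjusted p = 0.180) and -0.63 for L1Md_Gf (limma adjusted p = 0.179), so the day 12 values are not shown to differ from day 0. Without replicate 1 of the day 0 Ctcf shRNA cells 27 types differed, without their replicate 2 8, without replicate 1 of the day 0 control cells 6, and without replicate 2 of either day 12 group 8.

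At day 10 CTCF was raised in place of lowered. No LINE or SINE type was called in any of the 3 comparisons, where limma called 8 (0.0577%), 10 (0.0721%) and 12 (0.0865%) of all rows. At an unadjusted p under 0.05 there were 3, 1 and 2 types. A share of 0.05 passes on average where nothing differs, so these counts show no effect. The control columns were near duplicates, counted as 1 sample, so each comparison had 2 residual degrees of freedom, and Ctcf itself, with a log2 ratio of 2.16 under overexpression, had a limma adjusted p of 0.2335.

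L1Md_T scored 3380 and 3580 in the day 10 control, 2543 and 4684 with CTCF overexpression and 3226 and 3186 with the added Smarca5 shRNA. The overexpression libraries lay on either side of the control. B2_Mm2 scored 33000 and 39594 in the control, 25732 and 33000 with overexpression and 39594 and 29978 with both. B2_Mm1a scored 8984 in both control columns, 7718 and 8984 with overexpression and 9416 and 11139 with both, the last pair above the others but not called. Median log2 ratios of the young L1 types were -0.13 for overexpression against control, 0.07 for the added Smarca5 shRNA against overexpression alone, and -0.07 for both against control. Those of the B2 types were -0.23, 0.25 and -0.05 and those of the B1 types -0.10, 0.09 and 0.02.

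Over all 192 types the day 10 medians were -0.09, 0.06 and -0.04, with 36, 135 and 57 types above 0. The same values over all rows are not given here, so no shift of these types is read from them. Replicate 1 of the overexpression cells was below replicate 2 in most types, by a median of -0.17 on the log2 scale, and above it in 43. L5, an ancient LINE type of the RTE family, was among the lowest with the Smarca5 shRNA, at 206 and 214 against 360 and 358 with overexpression alone (log2 -0.77) and 412 and 405 in the control (log2 -0.96, limma adjusted p = 0.373). With all 6 libraries counted as separate samples L5 against control passed the threshold (limma adjusted p = 0.0146). L1_Mm, of the mouse lineage, scored 2454 and 1902 with both, 2543 and 3114 with overexpression and 3486 and 3533 in the control. Other types at the ends of the day 10 ranges, none called, were L4_C_Mam (log2 0.44), Lx4B (0.19), HAL1_SS (0.17), L1PB4 (-0.63), L2c (-0.62) and L1MEi (-0.56) for overexpression against control. For the added Smarca5 shRNA against overexpression these were L1PB4 (log2 0.52), L1MEg2 (0.46) and L1M2c (0.41) at the upper end and L1_Mm (-0.38) and L1M3d (-0.24) beside L5 at the lower. Against control they were Lx4B (log2 0.37), X2_LINE (0.33), L1MCb (0.32), L1_Mm (-0.70) and L1MEi (-0.66). Without replicate 2 of the overexpression cells Lx4B and L1MEi against control turned to -0.06 and 0.03, and without replicate 1 L1M2c turned to -0.02.

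Genes linked to the restriction and silencing of L1 were counted beside the repeats, from a list of 43 genes of which 42 were in the sorted-cell table. The list also holds Tet1, Tet2 and Yy1, and a higher score of a listed gene does not by itself mean more restraint. At day 12, 35 were higher and 3 lower than at day 0 in control shRNA cells, with a median log2 ratio of 1.36 (90.5% called, beside 79.1% of all rows, 40.3% higher and 38.8% lower). Dnmt3l, a cofactor of DNA methylation in germ and pluripotent cells, went from 1 and 3 to 2218 and 2042, and Dnmt3b, a de novo DNA methyltransferase, from 22 and 21 to 5094 and 5314. Tex19.1 and Mael, germline genes that limit retrotransposons, were listed at 0 at day 0 and scored 642 and 604, and 326 and 429, at day 12. Those lower were Tdrkh, a piRNA pathway protein (171 and 168 to 40 and 30), Trex1, a DNA exonuclease (210 and 168 to 72 and 83), and Pphln1, of the HUSH silencing complex (1152 and 1088 to 848 and 852). With Ctcf shRNA, over the mean of the populations, 1 gene of this list was higher (Mov10, log2 0.19) and 25 lower (beside 24.9% and 24.6% of all rows), with a median of -0.12. The falls with the largest ratios were in Tex19.1 (log2 -0.60), Setdb1, a histone H3 lysine methyltransferase (log2 -0.37), Tet1 (log2 -0.35) and Dnmt3b (log2 -0.33).

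A list of 33 genes for the transcription, binding and silencing of SINEs had 19 higher and 4 lower at day 12, with a median of 0.45. In either direction 69.7% were called, beside 79.1% of all rows, of which 40.3% were higher and 38.8% lower. Polr3g, an RNA polymerase III subunit of pluripotent cells, went from 325 and 380 to 1666 and 1574 (log2 2.20). Pogz, a partner of heterochromatin protein (log2 1.45), Gtf3c2, a subunit of the polymerase III factor TFIIIC (log2 1.34), and Ctcf itself (log2 1.57) were higher too. Those lower were Srp14 and Srp9, which bind B1 RNA and the particle RNA it came from (log2 -1.17 and -0.66), and the polymerase III genes Polr3k (log2 -0.95) and Brf2 (log2 -0.69). With Ctcf shRNA 1 gene of this list was higher over the mean of the populations (Adnp2, log2 0.16) and 13 lower (beside 24.9% and 24.6% of all rows), among them Ezh2 (log2 -0.32), Adnp, which competes with CTCF at B2 copies (log2 -0.22), and Gtf3c4 (log2 -0.19), besides Ctcf.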

How the data were processed

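RNA-seq of total RNA was analysed in 50 of the 56 samples of the series; the other samples have no repeat rows in the tables used and were not analysed here. Per the submitters' processing notes the authors used FastQC, Trim Galore and RSEM with the GRCm38 (mm10) build for these samples; versions, and how reads were assigned to repeat types, are not given in the sources used here. The deposited values are scores, normalized by the authors and rounded to whole numbers, with the same quartiles in every library of a table. Scores of repeats that share sequence, such as the young L1 types, may share reads.

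Rows scoring 10 or more in 2 or more libraries (every row did) were fitted as log2(score + 1) with limma 3.58.1 (R 4.3.3; eBayes with trend), 1 coefficient per group, with Benjamini-Hochberg adjustment over all rows. Sorted cells had 44 libraries in 22 groups (22 residual degrees of freedom). The day 10 control columns differed far less than any other pair and were averaged and counted as 1 sample. The measure was the median squared difference over sum, divided by the median of a chi-squared distribution with 1 degree of freedom. It was 0.329 for these columns, beside 1.67 to 12.0 in sorted cells. The scripts were tested on simulated data. Figures were drawn with matplotlib 3.10.9.

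Groups of types follow RepeatMasker names: young L1 (L1Md), mouse-lineage L1, Lx, old L1, other LINE, B1 (family Alu), B2, B4, ID, MIR and other SINE. Any young L1, B1 or B2 type could be named; of the others, the 3 per direction with the largest change among called types without overlap and with a level at or above the members' median, and for day 10 the 3 per direction, called or not. For the mean Ctcf shRNA effect, the same direction in at least 10 of the 11 populations was required in place of no overlap. Of the gene lists, the 4 genes per direction with the largest change that passed were named. Members and lists were chosen with earlier results of these data known. Over all rows and all pairs of groups, replicate numbers showed little pairing. Correlations of deviations were between -0.090 and 0.133 over 231 pairs of groups (12 over 0.1), and between -0.082 and 0.068 over 3 at day 10. Within some populations LINE and SINE types did share a replicate offset. Replicate 1 was above replicate 2 in 145 (control) and 141 (Ctcf shRNA) of 189 types in day 3 Thy1+ cells. In day 6 SSEA1+ cells it was in 154 and 154, but at day 12 in 123 and 87. The tests did not pair libraries within a population. Alternatives were a pseudocount of 8, a score minimum of 100, no filter, quantile normalization, scaling on genes alone, repeats fitted apart from genes, a replicate block and each library left out.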

Additional observations from a re-analysis of the deposited data

Results flagged for a closer look

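The effect of Ctcf shRNA differed between day 12 and day 0, by limma's interaction term, in 14 of 189 LINE and SINE types. This was a smaller share than the 37% of all rows that differed (20% higher and 16.9% lower). The types are given here with the difference in log2 ratio (day 12 minus day 0). The ratio was higher at day 12 for X5A_LINE (4.46), HAL1b (0.78), L1MC2 (0.71), L1M3e (0.59), L1ME4a (0.53), L1MD3 (0.49), L1ME2 (0.47) and MIR3 (0.32). It was lower for L4_A_Mam (-0.57), L1ME3E (-0.68), HAL1ME (-0.73), X7B_LINE (-0.84), L1MEi (-0.97) and L1M3c (-1.29). X5A_LINE rests on low scores, 52 and 107 with control and 1 and 1 with Ctcf shRNA at day 0. L1M3c at day 0 scored 96 and 276 with control and 432 and 421 with Ctcf shRNA. L1MEi moved in opposite directions, with ratios of 0.27 at day 0 and -0.70 at day 12, and HAL1ME did too (0.15 and -0.57), though neither day 0 ratio was called.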

How the results depend on the processing

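Over the alternatives tried, 1699 of 1840 values for the 162 named results kept their direction and their side of the threshold; 18 lost their call with scaling on genes alone, 18 with repeats fitted apart from genes, 1 with quantile normalization and 100 when 1 library was left out. The cause of the calls lost with repeats fitted apart was not tested: types called with repeats fitted apart were 14 for SSEA1+ against Thy1+ on day 9, 6 for the mean Ctcf shRNA effect, 1 at day 0, 0 in day 3 SSEA1+, 0 in day 6 Thy1+, 2 in day 6 SSEA1+, 2 in day 9 Thy1+, 0 in day 9 SSEA1+ and 5 at day 12 (young L1 lower 0), and 4 for the interaction. Part of the 1840 values could change little or not at all. The 162 values with no filter were fixed, since all rows passed the filter. Quantile normalization acted on scores that already had equal quartiles. It gave 3 types in day 6 SSEA1+, and scaling on genes alone 10 in day 6 SSEA1-Thy1- cells. With the replicate block 10 types were called in day 6 Thy1+ and 6 in day 9 SSEA1-Thy1- cells (5 and 3 without it), and no named call changed. With all 6 libraries 1 type (L5) was called for both treatments against control at day 10.

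Leaving out 1 library at a time gave these ranges of types called: day 12 against day 0, 109 to 121 (young L1 6 to 6, B1 15 to 15, B2 5 to 5, old L1 higher 20 to 27 and lower 13 to 17); SSEA1+ against day 0, 80 to 99 on day 3 (old L1 higher 48 to 57), 58 to 115 on day 6 and 113 to 120 on day 9; SSEA1+ against Thy1+, 52 to 102, 41 to 64 and 18 to 22 (old L1 higher on day 3, 34 to 49); day 12 against day 9 SSEA1+, 50 to 60 (young L1 higher 4 to 5, old L1 lower 30 to 41); day 9 Thy1+ against day 0, 110 to 128. For Ctcf shRNA they were 18 to 27 for the mean, 2 to 17 at day 0, 0 to 0 in day 3 Thy1+, 0 to 1 in day 3 SSEA1+ and in day 3 SSEA1-Thy1-, 0 to 3 in day 6 Thy1+, 1 to 6 in day 6 SSEA1+, 5 to 9 in day 6 SSEA1-Thy1-, 2 to 11 in day 9 Thy1+, 0 to 3 in day 9 SSEA1+, 2 to 6 in day 9 SSEA1-Thy1-, 6 to 10 at day 12 (young L1 lower 0 to 1) and 6 to 27 for the interaction; day 10, 0 to 0 in each comparison. Day 10 ratios that changed sign ranged from -0.06 (without replicate 2 of the overexpression cells) to 0.43 for Lx4B, from -1.16 to 0.03 (without replicate 2) for L1MEi, and from -0.02 (without replicate 1) to 0.84 for L1M2c. All rows passed the filter, so the fit with no filter was the same. Scores carry no depth, so the precision of a low score is unknown.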

Other observations

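Old L1 types were divided by name series after their values had been seen, so these counts are a description. Between day 9 SSEA1+ and day 12 GFP+ cells with control shRNA, 7 of 9 L1MA types, 4 of 7 L1MB, 9 of 11 L1MC, 4 of 6 L1MD, 16 of 27 L1ME and 3 of 5 HAL1 types were lower. Of the remaining series, 5 of 24 other L1M and 0 of 2 L1P types were lower. Over all rows 32.5% were lower and 25.1% higher. The 1 old L1 type that was higher belonged to the L1ME series. In day 3 SSEA1+ cells relative to day 0, 18 of 27 L1ME types were higher (median log2 ratio 0.69), as were 9 of 11 L1MC (0.66) and 7 of 9 L1MA types (0.58). So were 4 of 5 HAL1 (0.91), 6 of 7 L1MB (0.45), 4 of 6 L1MD (0.43) and 1 of 2 L1P types (0.63). Of the other L1M types 14 of 24 were higher (0.57), beside 40.2% of all rows. The old L1 type with the smallest distance between its lowest and highest population was L1MEg, at 0.27 on the log2 scale, and the one with the largest was L1MEi, at 6.20.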
